A study of Mus musculus with 20 samples.

Results

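The first day of differentiation was followed in 4 of the 20 RNA-seq libraries of the series, day 0 and day 1 of the control line and day 0 and day 1 of the HPRT knockdown line, with 1 library per line and day. Both lines derive from ESD3, a mouse embryonic stem cell line of strain 129s2/SvPas that was kept on mouse embryo fibroblast feeder cells. Control cells had been infected by a retrovirus carrying a short hairpin RNA against luciferase, and knockdown cells by one carrying a hairpin against HPRT, so both lines carried a virus and a hairpin. The methods state that RNAs were pooled within a time point, and whether a line was grown from a single infected cell is not stated in the labels. On day 0 the cells were spherical neural masses (SNMs), aggregates of neural precursors grown from the stem cells, and day 1 was the first day of their differentiation toward dopaminergic neurons. Genes were chosen by size alone: those at least 2-fold higher or lower on day 1 than on day 0 in both lines, and those past this fold in 1 line only. Among 13399 genes that passed a filter on low values, 487 (3.63%) changed in the same direction in both lines and 2032 (15.2%) in 1 line only. In what follows, "rose" and "fell" stand for a change of at least 2-fold. There is 1 library per line and day, no p-value is given, and the only repeat of a step is the same step in the other line.

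As background, cells short of oxygen stabilize the transcription factor HIF-1, which turns on genes of glycolysis, glucose uptake, angiogenesis and mitophagy. Actin stress fibers and focal adhesions, by which cells hold on to their surroundings, act on the transcription factors SRF and YAP. Fibroblast growth factors act through the kinase ERK and induce immediate early genes and their own feedback inhibitors, and Oct4, Nanog and their partners hold pluripotent stem cells undifferentiated. HPRT, hypoxanthine phosphoribosyltransferase, salvages purine bases into nucleotides.

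Transcripts of Hprt itself checked the labels. The gene lies on the plus strand of chromosome X, from 50341314 to 50374836 in NCBIM37, and had 775 reads on day 0 and 951 reads on day 1 in the control line. In the knockdown line it had 198 reads on day 0 and 133 reads on day 1. Both knockdown libraries were below both control libraries, which matches the labels. Within a line Hprt moved little, with a log2 change of 0.07 in the control (95% counting interval -0.07 to 0.21) and -0.04 in the knockdown (-0.38 to 0.27).

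The depth of the libraries was compared through low values. Relative to the control library of day 0, depth was 1.16 for the control of day 1, 1.49 for the knockdown of day 0 and 1.04 for the knockdown of day 1. Reads given here are those of each library before scaling, whereas log2 changes carry the authors' normalization. Reads could be worked out for 62.2% of the genes passing the filter. Some are fractions, and the methods state that partial reads entered the counting. For genes with very many reads only the change is given. Intervals cover counting error alone, which is the smallest error a value can have. Of 31 neural progenitor genes 27 passed the filter, against 1 of 15 markers of blood and microglia. All 22 markers of fibroblasts passed, and the 8 with reads worked out summed, scaled to equal depth, to 4192 reads on day 0 and 3764 reads on day 1 in the control and to 4212 reads and 3892 reads in the knockdown.

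By size alone, 1241 genes (9.26%) changed in the control line and 2093 (15.6%) in the knockdown line. The control line had 778 genes that rose (5.81% of the genes passing the filter) and 463 that fell (3.46%). In the knockdown line 832 genes rose (6.21%) and 1261 fell (9.41%). Thus more genes rose than fell in the control, and more fell than rose in the knockdown. The changes had a standard deviation across genes of 0.65 on the log2 scale in the control and 0.96 in the knockdown, around medians of 0.00 and 0.02. Genes that rose in both lines numbered 261 (1.95%), and genes that fell in both numbered 226 (1.69%). The genes that rose in both were 33.5% of those that rose in the control and 31.4% of those that rose in the knockdown. The genes that fell in both were 48.8% of those that fell in the control and 17.9% of those that fell in the knockdown. Opposite directions were taken by 164 genes (1.22%), of which 153 (1.14%) rose in the control and fell in the knockdown, and 11 (0.0821%) did the reverse. Across the 13399 genes, which are not independent replicates, the steps of the lines correlated with a Pearson r of 0.25 and a Spearman rho of 0.22. The smallest change counted as 2-fold in the control was 1.00 on the log2 scale and the largest left out was 0.9996. In the control 504 genes changed from 1.8-fold to just under 2-fold, and in the knockdown 592 did.

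**Figure D1:**
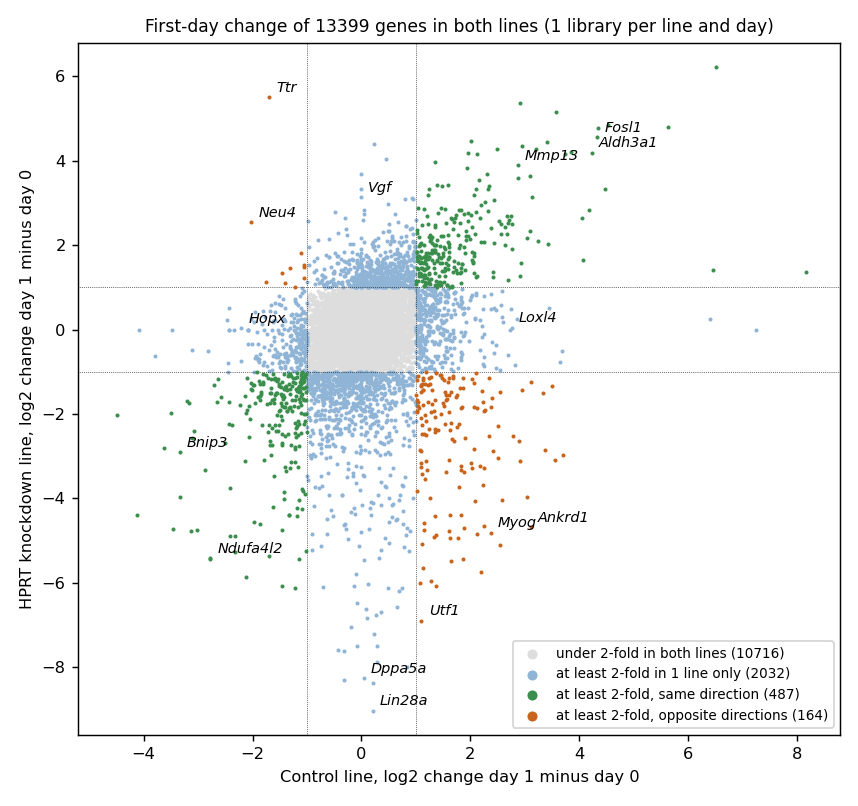
Log2 change from day 0 to day 1 in the control line (x axis) and in the HPRT knockdown line (y axis), each point 1 of 13399 genes and dotted lines marking 2-fold. The 153 genes at the lower right rose in the control and fell in the knockdown, while 11 genes lie at the upper left.

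Leading genes were taken from those whose changes around the 4 tables of days 0 and 1 added up within 0.1. Of these, the genes that rose most in both lines were led by Fosl1, which encodes the AP-1 subunit Fra-1 (NCBIM37 chromosome 19, 5447703 to 5455945, plus strand). It was 20.1-fold higher on day 1 in the control and 23.6-fold in the knockdown. Aldh3a1, an aldehyde dehydrogenase (chromosome 11, 61021039 to 61031923, plus strand), went from 12 to 264 reads in the control and from 16 to 204 reads in the knockdown. Its log2 changes were 4.23 (3.40 to 5.20) and 4.20 (3.46 to 5.03), and these wide counting intervals overlapped.

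The leading genes that rose included secreted signals. Ccl2, a chemokine that attracts monocytes, went from 6 to 102 reads in the control and from 7 to 89.9 reads in the knockdown. Cxcl5, a chemokine that attracts neutrophils, had 9 reads on day 0 and 92 reads on day 1 in the control, and 8 reads and 48.9 reads in the knockdown. For Il34, a ligand of the macrophage growth factor receptor Csf1r, the counts were 10 and 91 reads in the control and 4.61 and 65.8 reads in the knockdown. All 3 had at most 10 reads in each library of day 0.

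Mmp13, a collagenase (chromosome 9, 7272514 to 7283333, plus strand), had 64 reads on day 0 and 549 reads on day 1 in the control, and 58 reads and 599 reads in the knockdown. The log2 change was 2.87 (2.5 to 3.27) in the control and 3.89 (3.50 to 4.31) in the knockdown. S100a4, a calcium-binding protein of motile cells, went from 130 to 1111 reads and from 87 to 732 reads. The intervals of the lines did not overlap for Mmp13 or S100a4 (2.60 to 3.14 and 3.28 to 3.94).

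The other leading genes that rose were Tinagl1, a secreted matrix protein, with 14 and 219 reads in the control and 64.8 and 800.0 reads in the knockdown, Pdlim2, an actin-associated adaptor, with 15 and 150 reads and 29 and 251 reads, and Lgr6, a receptor for R-spondins, with 3 and 78 reads and 29 and 204 reads. Tinagl1, Pdlim2 and Lgr6 had more reads in the knockdown than in the control already on day 0, before scaling. The knockdown library of that day was 1.49 times as deep, which bears most on Pdlim2, with 29 reads beside 15. Ereg, a ligand of the EGF receptor, fell outside the rule for named genes and was picked after its values were seen. It had 0 and 54 reads in the control, at least 15.4-fold higher, and 2 and 39 reads in the knockdown. Angptl7, with 0 and 22 reads and 0 and 23 reads, and Clcf1, with log2 changes of 3.42 and 4.43, were also outside the rule. Ereg, Angptl7 and Clcf1 passed the filter but left more than 0.1 around the tables. By the smaller change Ereg and Angptl7 stood above Fosl1, on few reads of day 0.

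**Figure D2:**
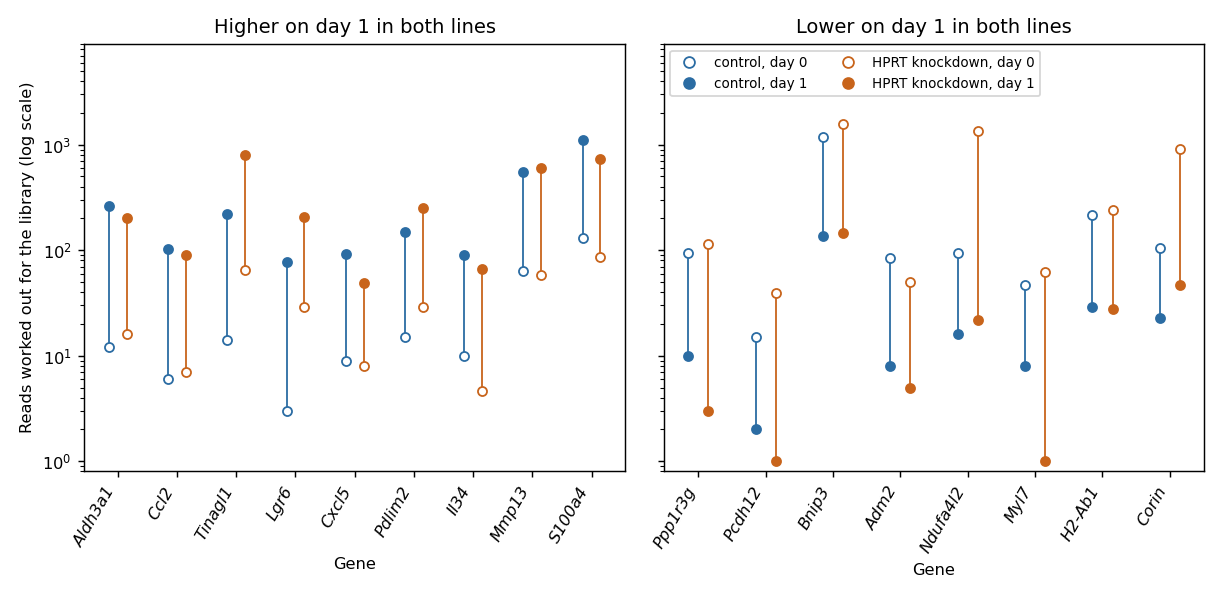
Reads worked out for each library (log scale) of the leading genes that rose (left) or fell (right) in both lines, open circles for day 0 and filled circles for day 1, control in blue and HPRT knockdown in orange. The genes were chosen for the same direction in both lines, and they range from Aldh3a1 (12 to 264 reads in the control) to Corin (909 to 47 reads in the knockdown).

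The genes that fell most in both lines included Bnip3 of the hypoxia response list and Pfkl of the glycolysis list. Bnip3, a mitophagy receptor induced by HIF-1 (chromosome 7, 146082519 to 146101202, minus strand), fell from 1182 to 137 reads in the control and from 1583 to 147 reads in the knockdown. The log2 changes were -3.34 (-3.60 to -3.08) and -2.90 (-3.16 to -2.66). Ndufa4l2, a mitochondrial protein induced by HIF-1, went from 94 to 16 reads in the control and from 1354 to 22 reads in the knockdown, where its fold of 42.8 was far larger than the 6.88 of the control. The knockdown thus had far more reads than the control on day 0 and a close number on day 1.

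Ppp1r3g, which targets a phosphatase to glycogen, went from 93.6 to 10 reads and from 114 to 3 reads, with a knockdown interval of -7.02 to -3.14. Adm2, a peptide hormone related to adrenomedullin, went from 83.9 to 8 reads in the control and from 50 to 5 reads in the knockdown. Pfkl, the liver form of phosphofructokinase and a rate-controlling step of glycolysis (chromosome 10, 77449692 to 77472828, minus strand), was 5.67-fold lower in the control and 6.43-fold lower in the knockdown. Gipr, the receptor of an incretin hormone, was 8.10-fold and 26.8-fold lower. Corin, a protease that also marks floor plate cells, went from 105 to 23 reads and from 909 to 47 reads. H2-Ab1, a chain of MHC class II, went from 215 to 29 reads and from 239 to 27.9 reads. Pcdh12 had 15 and 2 reads in the control and 39 and 1 reads in the knockdown, and Myl7, the atrial myosin light chain, had 47 and 8 reads and 62 and 1 reads. The last 2 rest on so few reads that their knockdown intervals ran from -10.1 to -2.2 and from -10.8 to -2.90.

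Counts of list members, here and below, stand beside the shares of all genes passing the filter. In the control 5.81% of all genes rose and 3.46% fell, in the knockdown 6.21% and 9.41%, and in both lines 1.95% and 1.69%. Of the 30 gene lists, the hypoxia response list had the most members that fell in both lines. Of its 31 genes 29 passed the filter, and 22 fell in the control, 25 in the knockdown and 20 in both, while none rose in either line. The median log2 change was -1.60 in the control and -1.69 in the knockdown, beside 0.00 and 0.02 for all genes. Over the 16 members with reads worked out, the reads scaled to equal depth summed to 11003 on day 0 and 3609 on day 1 in the control, and to 11635 and 4315 in the knockdown.

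Among its members, Vegfa, the angiogenic growth factor, had log2 changes of -2.07 and -1.81. Slc16a3, which exports lactate, had -2.41 and -4.89. Car9, a carbonic anhydrase, went from 90.2 to 11.5 reads in the control and from 116 to 25 reads in the knockdown. P4ha2, a collagen prolyl hydroxylase, went from 804 to 181 reads and from 1662 to 241 reads. Egln3, an oxygen sensor that marks HIF for destruction, went from 1111 to 415 reads and from 1562 to 217 reads. Members that differed between lines included Adm and Ppfia4. Adm, adrenomedullin, fell from 281 to 109 reads in the control but had 513 and 556 reads in the knockdown, a change of 0.64. Ppfia4, a synaptic scaffold protein, had 168 and 139 reads in the control and 967 and 154 reads in the knockdown.

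Of the 2 members under the filter, Ankrd37, a direct HIF-1 target, went from 326 to 36.4 reads in the control and from 325 to 5 reads in the knockdown. Of 8791 genes with a mean of at least 16 reads over the 4 libraries, 567 did not pass the filter, 62 of which fell in both lines and 50 of which rose in both, so the counts given here leave out some strongly changed genes.

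The promoters of 3 genes that fell in both lines and of 1 that rose are shown because known binding motifs lie in them. The 250 bases before the RefSeq start are printed, 5′ to 3′ on the strand of the gene, in build GRCm38.p6, which is not the build of the deposited tables. Capitals mark the core of the hypoxia response element, ACGTG or GCGTG on either strand, in Bnip3 (chr7:138909507-138909756, minus strand), Pfkl (chr10:78009808-78010057, minus strand) and Ankrd37 (chr8:45999851-46000100, minus strand), and the AP-1 site TGANTCA in Mmp13 (chr9:7272264-7272513, plus strand).
Bnip3: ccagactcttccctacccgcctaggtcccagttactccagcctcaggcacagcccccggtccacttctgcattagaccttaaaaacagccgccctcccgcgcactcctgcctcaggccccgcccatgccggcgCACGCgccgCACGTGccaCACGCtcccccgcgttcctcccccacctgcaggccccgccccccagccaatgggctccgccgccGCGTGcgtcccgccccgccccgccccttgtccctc
Pfkl: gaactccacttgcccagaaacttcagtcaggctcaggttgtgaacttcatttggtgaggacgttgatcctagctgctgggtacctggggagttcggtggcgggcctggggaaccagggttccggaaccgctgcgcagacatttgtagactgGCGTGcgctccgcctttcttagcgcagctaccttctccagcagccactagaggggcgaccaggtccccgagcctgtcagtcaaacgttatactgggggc
Ankrd37: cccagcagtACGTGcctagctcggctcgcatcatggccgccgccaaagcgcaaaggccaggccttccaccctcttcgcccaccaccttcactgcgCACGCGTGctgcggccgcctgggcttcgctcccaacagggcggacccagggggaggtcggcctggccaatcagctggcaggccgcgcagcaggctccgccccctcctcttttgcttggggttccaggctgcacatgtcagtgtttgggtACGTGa
Mmp13: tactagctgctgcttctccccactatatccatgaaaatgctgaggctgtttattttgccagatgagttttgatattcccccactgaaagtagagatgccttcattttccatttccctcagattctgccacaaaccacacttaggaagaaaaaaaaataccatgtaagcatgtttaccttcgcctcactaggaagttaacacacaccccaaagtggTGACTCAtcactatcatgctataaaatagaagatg

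Bnip3 held 5 matches of the core, the nearest starting 35 bases before the start and a group of 4, partly overlapping, starting between 117 and 99 bases before it. Ankrd37 held 4 matches and Pfkl 1. In Mmp13 the AP-1 site began 35 bases before the start. Of the 31 hypoxia genes 26 had a promoter in the table, and 25 of these (96.2%) held the core on either strand, beside 62.0% of the 10407 genes passing the filter that had one and 41.5% of the genes with a promoter in the table. Of the 19 glycolysis genes 15 held it. In the 163 genes that fell in both lines with a promoter in the table the share was 58.9%, and in the 190 that rose in both it was 52.6%. The AP-1 site was held by 16.3% of the 190 genes that rose in both lines, 3.68% of the 163 that fell in both and 5.23% of the genes passing the filter. A gene was counted if any of its promoters held the motif. A match describes the letters alone, and binding was not measured.

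Glycolysis, the breakdown of glucose to pyruvate, moved with less depth than the hypoxia list. All 19 members passed the filter, and 8 fell in the control, 8 in the knockdown and 6 in both, with medians of -0.95 and -0.79. Pgk1, phosphoglycerate kinase, went from 722 to 216 reads in the control and from 844 to 236 reads in the knockdown. Ldha, which turns pyruvate to lactate, had log2 changes of -1.86 and -1.66, and Hk2, the inducible hexokinase, had -1.16 and -2.5. The muscle form Eno3 was the 1 member that rose in the control, with 108 and 350 reads, and in the knockdown it had 219 and 72.7 reads. Ldhb, with 1036 and 1340 reads in the control and 1597 and 1367 reads in the knockdown, stayed under 2-fold in both lines.

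**Figure D3:**
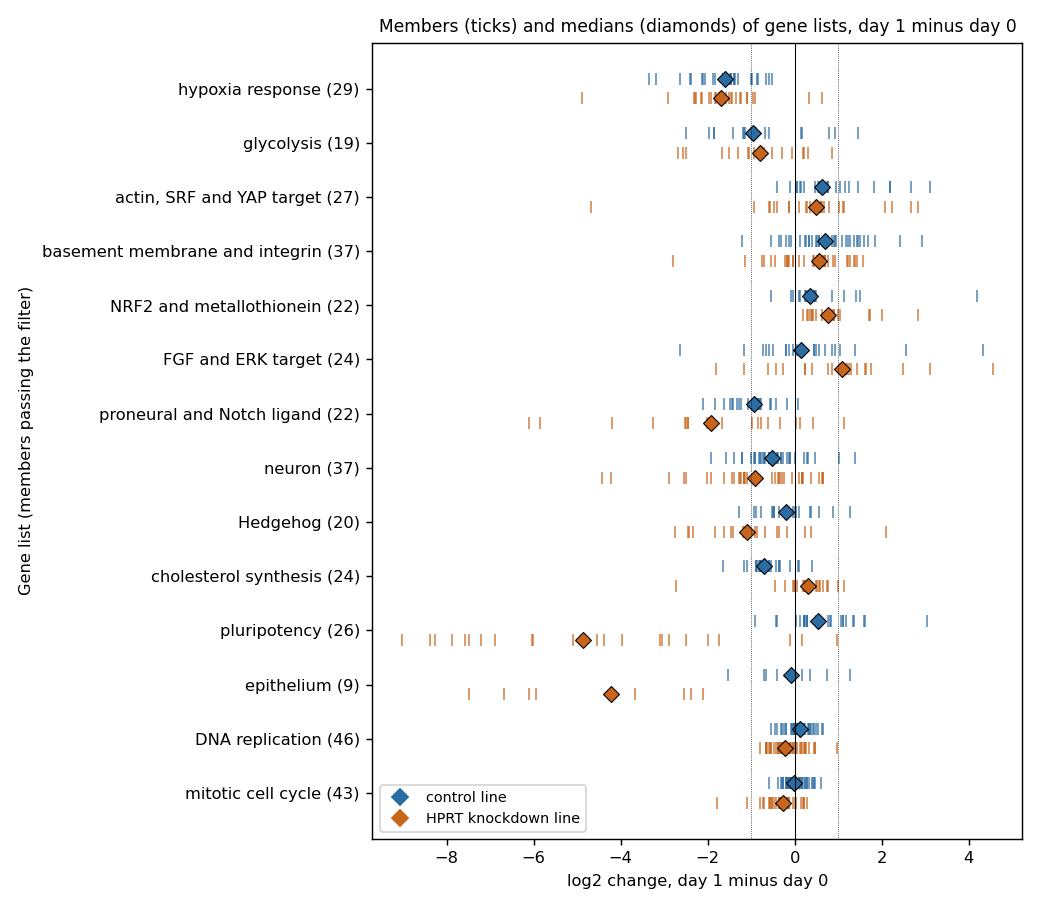
Log2 change from day 0 to day 1 of the members of 14 gene lists (ticks) with the list median (diamonds), control line in blue above HPRT knockdown line in orange, and the number of members passing the filter in brackets. The hypoxia medians of -1.60 and -1.69 lie side by side, whereas the pluripotency medians of 0.55 and -4.86 are far apart.

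Lists of the cytoskeleton and of cell attachment had medians above 0 in both lines. A minority of their members rose in both, beside 1.95% of all genes. In the list of actin genes and targets of SRF and YAP 27 of 28 members passed, 9 rose in the control, 7 in the knockdown and 6 in both, with medians of 0.63 and 0.48. Tagln, transgelin, which binds actin stress fibers, had log2 changes of 2.67 and 2.68. Ctgf and Cyr61, secreted proteins induced by YAP, had 2.2 and 2.08 and 1.83 and 2.83. Lmna, the nuclear lamin A, went from 532 to 1709 reads and from 1505 to 2266 reads. Acta2, smooth muscle actin, was apart between lines, at 2.19 in the control and -0.48 in the knockdown. Ankrd1, a stress protein of muscle and a YAP target (chromosome 19, 36186455 to 36194334, minus strand), went from 10 to 101 reads in the control and from 37 to 1 reads in the knockdown.

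In the list of basement membrane proteins and integrins, the receptors by which cells hold on to matrix, all 37 members passed, 13 rose in the control, 7 in the knockdown and 5 in both, with medians of 0.70 and 0.56. Itgb3, integrin beta 3, went from 51.9 to 460.0 reads in the control and from 154 to 259 reads in the knockdown. Itga7, a laminin receptor, went from 72 to 452 reads and from 523 to 940 reads, and Itga3, another laminin receptor, from 84 to 355 reads and from 445 to 916 reads. Vtn, the matrix protein vitronectin, fell from 103 to 52 reads and from 1527 to 154 reads. Fibroblast markers moved little beside these, with medians of 0.21 and -0.15. Of these 22 markers 2 rose and 1 fell in each line, and the knockdown changes ranged from -2.0 to 2.98. The part of feeder cells in these changes was not tested.

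On the list of BMP and TGF-beta signaling 5 of 29 genes rose and 1 fell in the control, and 4 rose and 8 fell in the knockdown, with medians of 0.22 and -0.38. In both lines 3 rose and 1 fell, and Inhba, a subunit of activin, had log2 changes of 1.95 and 2.23. The list of metallothioneins and targets of NRF2, the regulator of the oxidative stress response, included 4 that rose in both lines among 22. Osgin1, a stress-induced growth inhibitor, went from 4 to 85.4 reads and from 12.3 to 61.6 reads. Nqo1, a quinone reductase, went from 300 to 994 reads and from 396 to 917 reads, with log2 changes of 1.5 (1.31 to 1.69) and 1.74 (1.56 to 1.91). Both intervals overlapped, and none of the 22 genes fell in either line.

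Proneural genes had medians below 0 in both lines. In the list of proneural factors and Notch ligands 22 of 28 members passed, 10 fell in the control, 13 in the knockdown and 6 in both, with medians of -0.93 and -1.92. Neurog2, which commits progenitors to the neuronal fate, went from 145 to 64 reads in the control and from 273 to 19.8 reads in the knockdown. Nhlh2, a factor of newborn neurons, went from 931 to 466 reads and from 499 to 5 reads. Dll1, the Notch ligand of neuronal precursors, went from 797 to 376 reads and from 707 to 323 reads, under 2-fold in the knockdown. In the list of neurons 37 members passed, of which 6 fell in the control, 18 in the knockdown and 1 in both. That gene was Elavl4, an RNA-binding protein of young neurons, with 911 and 464 reads and 836 and 99.5 reads. On the neural progenitor list, by contrast, the medians were -0.63 and 0.07. There 6 of 27 members fell in the control and none rose, while 5 fell and 4 rose in the knockdown, and 3 fell in both. Hes5, a Notch target, went from 313 to 134 reads and from 612 to 76.3 reads, whereas Nes, the filament protein nestin, had log2 changes of 0.98 and 1.96. Less RNA per cell and fewer cells of a type cannot be told apart in such libraries.

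Medians of midbrain dopaminergic genes were below 0 too. Among 14 members passing of 21 on the midbrain dopaminergic list 4 fell in the control, 10 in the knockdown and 2 in both, with medians of -0.89 and -1.42. Foxa2, a floor plate factor, had 78.7 and 49.9 reads in the control and 356 and 45 reads in the knockdown. Lmx1a, which specifies dopaminergic precursors, had 59 and 47.2 reads and 833 and 173 reads. En2, a midbrain and hindbrain factor, went from 858 to 518 reads in the control and from 115 to 233 reads in the knockdown. Hedgehog genes had medians of -0.19 and -1.10, with 1 of 20 falling in the control and 11 in the knockdown, and 1 rising in each line. Olig2, a factor of oligodendrocyte precursors, rose in the knockdown, with log2 changes of 0.56 in the control and 2.11 in the knockdown. Foxj1 rose in the control, with 1.28 and -0.92. Gli1, a target by which Hedgehog activity is commonly read, had log2 changes of 0.11 and -2.42.

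Genes that rose in the knockdown alone numbered 560 (4.18%), and 161 of them (1.2%) were under 1.2-fold in the control. The leading one with many reads was Vgf, a neuropeptide precursor induced by growth factors (chromosome 5, 137506165 to 137509221, plus strand). It had 141 and 165 reads in the control and 236 and 1446 reads in the knockdown, a log2 change of 3.14 (2.94 to 3.34) beside -0.01 (-0.33 to 0.33). Cela1, an elastase, had 19.7 and 23.5 reads in the control and 14.6 and 61.2 reads in the knockdown. C1ql3 and Tmem40 were 4.11-fold and 4.51-fold higher in the knockdown. Npvf, a neuropeptide precursor, had 3.92 and 5.39 reads in the control and 0 and 17.5 reads in the knockdown, at least 8.38-fold higher.

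On the list of feedback inhibitors and targets of FGF and ERK signaling 24 of 25 members passed, with medians of 1.10 in the knockdown and 0.15 in the control. In the knockdown 14 rose and 2 fell, and in the control 4 rose and 2 fell. In both lines 3 rose and 1 fell, Fgfbp3, with log2 changes of -2.63 in the control and -1.16 in the knockdown. Shisa2 had -0.59 and -1.80. Dusp6, the ERK phosphatase, had log2 changes of -0.03 in the control and 1.75 in the knockdown, and Spry4, an inhibitor of receptor signaling, had 0.16 and 1.65. Ccnd1, cyclin D1, had 0.93 and 3.12. Spred3, another inhibitor, went from 414 to 420 reads in the control and from 423 to 801 reads in the knockdown. Among the 22 immediate early genes passing, 6 rose in the knockdown and 2 in the control, and none rose in both. Egr1 went from 762 to 1032 reads in the control and from 830 to 2416 reads in the knockdown, and Junb from 321 to 334 reads and from 335 to 742 reads. Both were highest in the knockdown library of day 1.

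Genes that rose in the control alone numbered 364 (2.72%), of which 86 (0.642%) were under 1.2-fold in the knockdown. Loxl4, which cross-links collagen, had 14.8 and 117 reads in the control and 283 and 203 reads in the knockdown. Gfap, the intermediate filament of astrocytes, was 4.65-fold higher in the control, beside a log2 change of -0.17 in the knockdown. Ltbp2, a matrix protein, was 6.07-fold higher and Pcdhgb8, a protocadherin, 4.78-fold higher. Gbp1, a GTPase induced by interferon, had 16 and 66 reads in the control and 67.2 and 39 reads in the knockdown. Loxl4 and Gbp1 thus started higher in the knockdown, so that the control had more reads only for Gbp1 on day 1. Ibsp, bone sialoprotein, picked after its values were seen, was 289-fold higher in the control and 2.59-fold in the knockdown, so it rose in both lines. Its log2 change relative to day 0 was 8.18 on day 1 and -0.37 on day 2 in the control. In the knockdown it was 1.37 and -6.94.

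Those that fell in the control alone numbered 226 (1.69%), and 61 (0.455%) of these were under 1.2-fold in the knockdown. Hopx, a small homeodomain protein of progenitors, had 504 and 128 reads in the control and 754 and 538 reads in the knockdown, with log2 changes of -2.21 (-2.5 to -1.92) and 0.04 (-0.12 to 0.20). Sstr1, a somatostatin receptor, had 141 and 42 reads and 86 and 68 reads. Lims2, a focal adhesion adaptor, and Ecel1, a neuronal peptidase, were 5.53-fold and 4.10-fold lower in the control. Xlr3b had 15.7 and 0 reads in the control, at least 6.14-fold lower, and 19 and 13.1 reads in the knockdown. It belongs to a family of near-identical copies, so its reads are uncertain.

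Cholesterol synthesis genes had medians of opposite sign in the lines without many passing 2-fold. Of 24 members 3 fell in the control and 1 in the knockdown, and 2 rose in the knockdown. Of all genes 3.46% fell in the control, and 9.41% fell and 6.21% rose in the knockdown. The knockdown counts were near or below those shares. The medians were -0.69 and 0.30, with 3 members above 0 in the control and 19 in the knockdown. Mvd, mevalonate decarboxylase, went from 2055 to 1068 reads in the control and from 1653 to 1349 reads in the knockdown.

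The genes that fell in the knockdown alone were the largest group of those past 2-fold in 1 line only, 882 genes (6.58%), of which 252 (1.88%) were under 1.2-fold in the control. Lin28a, an RNA-binding protein of stem cells that blocks let-7 (chromosome 4, 133559245 to 133574756, minus strand), was 522-fold lower on day 1 in the knockdown, with a log2 change of 0.21 in the control. Fbxo15, a target of Oct4 and Sox2, was 113-fold lower and Trh, the precursor of thyrotropin-releasing hormone, 98.0-fold lower. For Lin28a, Fbxo15 and Trh no reads were worked out, so these large folds carry no counting interval. Elf3, an epithelial factor, had 182 and 239 reads in the control and 108 and 4 reads in the knockdown. Qprt, an enzyme of NAD synthesis, had 32.2 and 42.4 reads and 35.0 and 1.16 reads.

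Pluripotency genes were low in the knockdown library of day 1. On that list 26 of 28 members passed, and 23 fell in the knockdown while none fell in the control, where 9 rose. Medians were 0.55 in the control and -4.86 in the knockdown, or -4.47 with genes at 0 reads set to 3 reads. Over the 16 members with reads worked out, the sums scaled to equal depth were 3825 on day 0 and 6002 on day 1 in the control, and 2473 and 421 in the knockdown. At 0 reads in the knockdown library of day 1 were 7 of these 16, and none was at 0 in the other 3 libraries.

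Dppa5a, a marker of undifferentiated cells, had 594 and 717 reads in the control and 368 and 0 reads in the knockdown, at least 85.3-fold lower. Fgf4, a growth factor of the epiblast, had 180 and 258 reads and 216 and 0 reads, at least 50.1-fold lower. Dnmt3l, a cofactor of DNA methylation, had 135 and 193 reads and 283 and 0 reads, at least 65.7-fold lower. Pou5f1, which encodes Oct4, had log2 changes of 1.34 and -4.91, and Nanog had 0.50 and -4.55. The members that stayed under 2-fold in both lines were Klf4, with 256 and 228 reads and 303 and 239 reads, Klf5, at 0.77 and -0.10, and Tbx3, at 0.21 and 0.98. These factors are also used outside pluripotent cells.

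Epithelial markers were low in the same library. Of 14 markers 9 passed, and each of these fell in the knockdown, with a median of -4.23 beside -0.08 in the control. Cdh1, E-cadherin, had log2 changes of 0.75 and -3.68. Cldn4, a tight junction protein, had 119 and 86 reads in the control and 197 and 2 reads in the knockdown. Krt5, a keratin of basal epithelium, had 9.92 and 11 reads and 215 and 0 reads, at least 49.8-fold lower. The 10 markers with reads summed, at equal depth, to 882 on day 0 and 951 on day 1 in the control and to 3859 and 662 in the knockdown. Krt19, a keratin of simple epithelium, held 2840 of the knockdown reads of day 0 before scaling, and the median log2 ratio of knockdown to control on that day was 0.32 over the 9 markers.

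Medians of other germ layer markers were also below 0. Endoderm markers had medians of -0.15 and -1.36, and 6 of 12 fell in the knockdown. Their summed reads at equal depth, in which Ttr counts, went the other way there, from 2242 to 3219, and from 1763 to 2229 in the control. Mesoderm markers had -0.38 and -2.38, and 5 of 6 fell. Endothelial markers had -0.25 and -1.77, and 7 of 10 fell. With the filter raised to a log2 count of 8, which left 4 endoderm markers and 1 endothelial marker, the knockdown medians were 0.23 and 1.11. Hand1, a factor of lateral mesoderm under the filter and picked after its values were seen, had 10 and 25 reads in the control and 585 and 0 reads in the knockdown, at least 136-fold lower. Whether cells of these kinds were fewer in the masses collected that day was not tested.

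The leading genes that moved in opposite directions included Utf1 of the pluripotency list, Esrp1 of the epithelial markers and Ankrd1 of the actin list. Utf1, a chromatin factor of stem cells (chromosome 7, 147129688 to 147131011, plus strand), had 552 and 1390 reads in the control and 684 and 4 reads in the knockdown. Log2 changes were 1.10 (0.96 to 1.25) and -6.89 (-8.77 to -5.53). Esrp1, an epithelial splicing regulator, had 146 and 415 reads and 267 and 3 reads. Slc27a2, a fatty acid transporter, was 2.59-fold higher in the control and 67.5-fold lower in the knockdown. Myog, myogenin, the factor that drives muscle fiber formation (chromosome 1, 136186581 to 136189124, plus strand), had 41 and 249 reads in the control and 121 and 3 reads in the knockdown.

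A list of skeletal and cardiac muscle genes was written after these values were seen, so its counts only describe. Of 58 genes 37 passed the filter, and 28 of them rose in the control and fell in the knockdown. Medians were 2.02 and -3.17. The 46 with reads summed, at equal depth, to 1835 on day 0 and 5026 on day 1 in the control, and to 3438 and 1025 in the knockdown. Tnni1, troponin I of slow muscle, had 60.8 and 302 reads and 168 and 7 reads. Neb, the giant filament protein nebulin, had 24.1 and 294 reads and 224 and 21.7 reads. Mef2c, a factor of muscle and of neurons, stayed under 2-fold, with 452 and 687 reads and 847 and 635 reads.

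In the reverse direction, Ttr, transthyretin, the thyroid hormone carrier made by yolk sac endoderm, liver and choroid plexus, had 58 and 1841 reads in the knockdown and 3 and 0 reads in the control, too few for a fold there. Neu4, a sialidase, had 208 and 60 reads in the control and 13 and 53 reads in the knockdown. Crym, which binds thyroid hormone, had 303 and 165 reads and 96.4 and 235 reads. Slc2a6, a hexose transporter, had 99.7 and 47 reads and 40.9 and 78.8 reads. For Neu4, Crym and Slc2a6 the counting intervals of the lines did not overlap. These genes had been chosen for the largest opposite changes, so this only describes their counting error. Cntn6 had 9.33 and 4 reads and 8 and 14 reads, and its intervals of -3.55 to 0.44 and -0.02 to 2.79 overlapped.

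Cell cycle genes moved little. Of 46 DNA replication genes none rose or fell in either line, with medians of 0.13 and -0.21, and of 43 mitotic genes 2 fell in the knockdown. These were Mybl2, a factor of the G2 phase, from 632 to 127 reads, and Bub1, a checkpoint kinase, from 865 to 283 reads. In the purine metabolism list, to which HPRT belongs, 2 of 27 rose in both lines, Gda, guanine deaminase, from 12 to 50 reads and from 18 to 32 reads, and Nt5e, which makes adenosine, from 42 to 113 reads and from 99 to 160 reads. The medians were 0.12 and 0.15.

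The following days were set beside the first. These values join tables that share the day 1 and day 0 libraries, so they are given side by side and not compared by a test. The hypoxia median relative to day 0 was -1.60, -1.49 and -1.04 on days 1, 2 and 3 in the control, and -1.69, -1.68 and -1.46 in the knockdown. That of the actin list was 0.63, 1.06 and 1.28 in the control and 0.48, 0.66 and 1.15 in the knockdown. Pluripotency genes in the knockdown went from -4.86 on day 1 to -1.96 on day 2 and -0.19 on day 3, and epithelial markers from -4.23 to -2.31 and -0.96. Muscle genes in the knockdown stayed low, at -3.17, -3.43 and -3.86, as they reached 2.02, 2.60 and 3.87 in the control. Lin28a was at -9.03 on day 1 and -0.34 on day 2, and Ttr in the knockdown at 5.51 and then -1.07. The low pluripotency and epithelial values and the high Ttr were thus, over days 1 to 3, farthest from day 0 in the knockdown library of day 1.

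**Figure D4:**
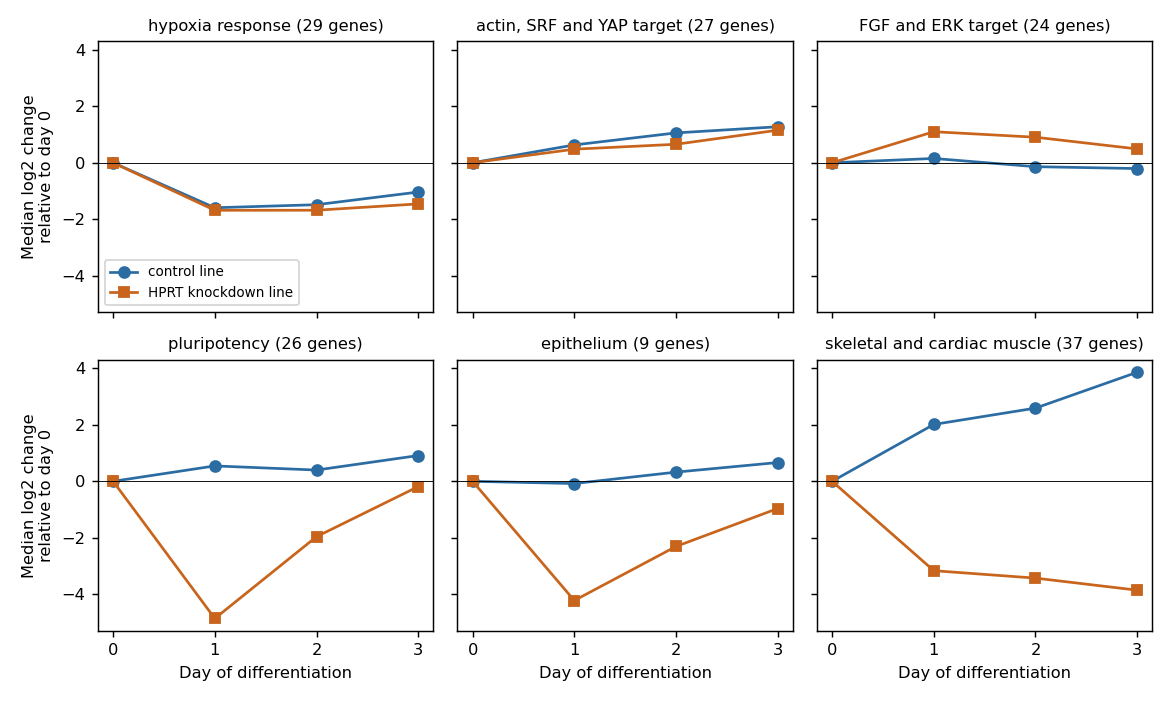
Median log2 change relative to day 0 (y axis) over days 0 to 3 (x axis) for 6 gene lists, control line as blue circles and HPRT knockdown line as orange squares, 1 library per point. The hypoxia medians stay below -1 in both lines on days 1 to 3, while the knockdown median of the pluripotency genes goes from -4.86 on day 1 to -0.19 on day 3.

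Day 2 was set against day 0 by adding the steps from day 0 to 1 and from day 1 to 2. This gave 298 genes changed in the same direction in both lines in place of 487. The sum passes through the day 1 library and kept the same filter, so day 1 was not left out. The 226 genes that fell in both lines, chosen on day 1, had medians of -1.45, -0.86 and -0.83 on days 1 to 3 in the control and of -1.74, -1.80 and -1.75 in the knockdown. The 261 that rose in both had 1.54, 1.21 and 0.91 in the control and 1.85, 1.13 and 0.98 in the knockdown. Of the 882 genes that fell in the knockdown alone, the knockdown median was -1.49, -1.19 and -0.90.

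The first step was large beside the later ones of each line. Among 13610 genes passing the filter over all tables, 1319 were past 2-fold from day 0 to day 1 in the control. This was the third highest of its 9 steps. Both steps above it, 1737 from day 4 to day 6 and 1670 from day 6 to day 8, share the library of day 6. The paper left day 6 out of its pathway tests because it looked like a strong outlier. The next highest control step had 940 genes, from day 12 to day 14. In the knockdown the first step had 2200 such genes, the highest of 9, and the other steps had between 795 and 1688. Steps after day 4 span 2 days.

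**Figure D5:**
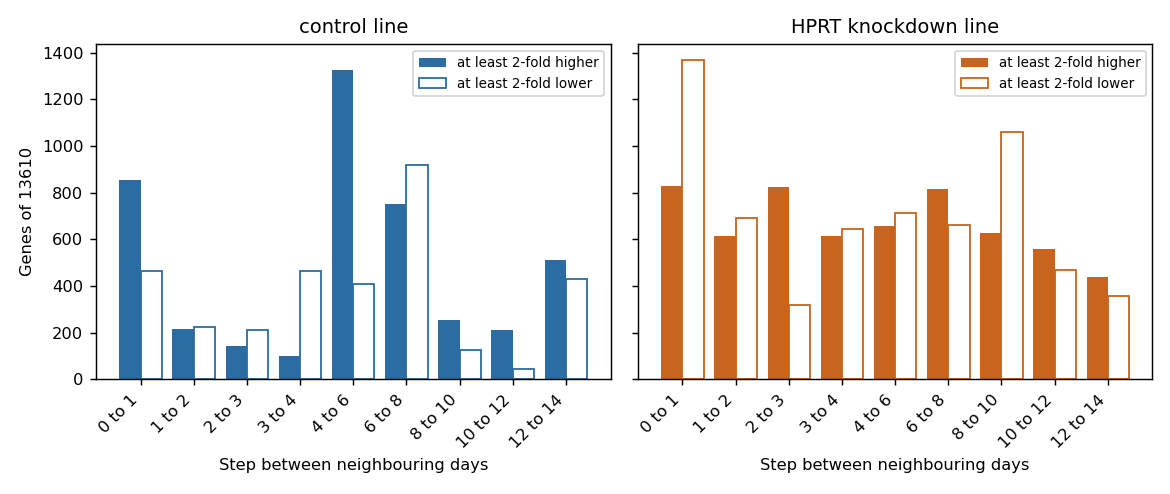
Number of genes of 13610 that were at least 2-fold higher (filled bars) or lower (open bars) in each of the 9 steps between neighboring days, control line at left and HPRT knockdown line at right. The first step of the knockdown has 831 higher and 1369 lower, and that of the control 853 higher and 466 lower.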

How the data were processed

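Total RNA was sequenced by the authors on an Illumina HiSeq for 50 cycles, aligned with CASAVA 1.8.2 to NCBI37/mm9 and counted per gene with DESeq normalization. The deposited values are log2 normalized counts from which the authors had subtracted the mean of both libraries of a table, so a pair gives a log2 ratio and no level; values at or below 1 count had been set to 0. Of 28 tables, 4 hold the libraries of days 0 and 1. The log2 change of a line was taken within its own table. Levels were read from the rounding step of these 32-bit numbers, and a gene passed at a typical log2 count of at least 4, as did 13399 of 37561. The filter is approximate: 98.8% of genes with a mean of at least 5 log2 reads passed, and 4.56% of those under 3. Counts were worked back as multiples of 1/49 read where the tables fixed them (11334 genes), with exact Clopper-Pearson 95% intervals of the ratio. In 90.5% of the genes passing, the changes around the 4 tables added up within 1e-05 once a constant for normalization was taken off, and 426 genes left more than 0.1. No p-value was computed, and a fit of day with line as a block, which leaves 1 residual degree of freedom, was not made. Genes named are the 10 that rose and the 10 that fell most in both lines by the smaller change. Among those past 2-fold in 1 line only (under 1.2-fold in the other) or in opposite directions, they are the 5 each way with the largest difference between lines. These came from genes passing the filter that left at most 0.1 around the 4 tables and had a symbol other than a clone or predicted-gene name. In 30 gene lists and 9 marker lists the 2 leading members each way were picked. Not all of these lists and members are reported here, and which of them are reported was not set by a rule. Genes named outside these rules are marked, and further list members were named after their values were seen. The genes and lists were chosen with earlier results of these data known. List symbols were matched by symbol, then by RefSeq gene number, which placed all but 2 members. Scripts were tested on simulated tables. Python 3 with numpy, pandas, scipy and matplotlib was used.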

Additional observations from a re-analysis of the deposited data

Results flagged for a closer look

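These values had opposite signs in the lines, with 1 library per line and day, and the difference was not tested. The log2 change of the knockdown minus that of the control was -7.99 for Utf1, -7.79 for Ankrd1, -7.45 for Slc27a2, -7.23 for Esrp1 and -7.18 for Myog. It was 7.21 for Ttr, where the control had 3 and 0 reads and shows no direction, 4.57 for Neu4, 2.91 for Crym, 2.78 for Slc2a6 and 2.78 for Cntn6, whose counting intervals include 0 in both lines. For the median of the pluripotency list it was -5.41.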

How the results depend on the processing

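The counts rest on the filter and the fold. With the filter raised to a log2 count of 8, 408 genes were past 2-fold in the control, 772 in the knockdown, 171 in the same direction, 774 in 1 line only and 32 in opposite directions, and the first step of the control had 348. With no filter other than reads in 1 of the 4 libraries these were 2713, 4019, 919, 3870, 512 and 2713. At 1.5-fold they were 3145, 4481, 1327, 4056 and 458, and at 4-fold 219, 598, 81, 603 and 26. With day 2 in place of day 1, which was chosen after seeing the data, 298 genes changed in the same direction, 129 of them higher, and 530 rose in the knockdown. Changing the tables behind the filter, centring on the median, passing through the other 3 tables, leaving out genes whose tables did not add up, and asking for a mean of 16 reads, the last also chosen after seeing the data, kept each of these counts within 1.5 times. The mean of 16 reads moved the genes under 1.2-fold in the other line by more, to 34 that fell in the control alone and 105 that rose in the knockdown alone. Under the filter at 8 the knockdown medians reversed for endoderm, 0.23, and endothelial markers, 1.11. Recomputed list medians moved by less than 1.2-fold in 538 cases and by more in 96, and the cause was not tested. No paired analysis was made, and the results come from size alone, with no test. With 1 library a group, the spread between cultures is unknown, and some strongly changed genes did not pass the filter.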
